A study of Mus musculus with 12 samples.

Results

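Dendritic cells (DCs) cultured with allospecific effector memory T cells were compared, over all genes, with the same kind of DCs cultured alone. The comparison used every library that the labels put in either condition, 3 and 3, which is 6 of the 12 libraries in the study. The study asked how memory CD4 T cells that recognise a transplant act on DCs. The alloreactive cultures (the AlloTem group) held DCs of C57BL/6 mice and memory T cells that the labels describe as BALB/c derived and alloantigen specific, and lasted 3 h. The DC only group was kept without T cells or stimulus. The other libraries, of DCs with syngeneic memory T cells (SynTem, 3) and with lipopolysaccharide (LPS, 3), a bacterial cell wall component, entered the fit to estimate the spread. In all groups the donors of the DCs carried B16 melanoma cells that secrete Flt3 ligand, which drives DC numbers up. Spleen DCs were then enriched by bead removal of T, B and natural killer cells and macrophages, and sorted by CD11b and CD11c after the culture. The T cells met DCs from tumour-bearing, Flt3 ligand-expanded spleens in a dish, which limits the cultures as a model of a graft. The sex and age of the mice are not in the labels. Separate animals or cultures behind the replicates are not stated either, so a p-value here speaks to the spread among these libraries alone, and that spread may be technical.

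DCs take up antigen, present it on MHC molecules and tell T cells how to respond. Effector memory T cells that recognise a DC answer back within hours, through CD40 ligand and through cytokines such as GM-CSF, interleukin-4, interferon gamma and tumour necrosis factor family members. Those signals run through STAT transcription factors, NF-kB and the MAP kinases, and the SOCS family (Cish, Socs1, Socs2, Socs3) is induced by STATs and damps them.

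Total counts were 20055002 to 21861156 in AlloTem libraries and 16323673 to 19461531 in DC only libraries. Levels are in CPM, that is counts relative to the size of the library after edgeR scaling (TMM). A deposited table gives each library a batch number, the same as its replicate number for 12 of 12, and does not state what a batch was. Among the within-group pairs DC only 1 and 2 were most alike (5.82 for the chi-square statistic over its degrees of freedom, against 41.7 to 73.0 in the 5 other pairs of AlloTem or DC only). They differed beyond counting noise, which cannot show whether they came from separate animals or cultures. They were kept as separate replicates, and the number of calls leaned on that choice. Of the 253 calls given below, the fit made 42 without DC only 1 and 43 without DC only 2, against 122 without DC only 3, counting any new ones. The first principal component of the 6 libraries took 37.9% of the variance, with AlloTem 1, 2 and 3 at -55.4, -44.8 and 1.89 and DC only 1, 2 and 3 at 22.4, 22.9 and 53.0. The second took 28.7%, with AlloTem 1, 2 and 3 at 5.04, -5.84 and -47.9 and DC only 1, 2 and 3 at 38.9, 42.6 and -32.8. On it library 3 was lowest in both groups, and AlloTem was below DC only in each batch. Both libraries of batch 3 held Xist and Y-linked transcripts, with Xist at 145 CPM in AlloTem 3 and 146 CPM in DC only 3 and the sum of 4 Y-linked transcripts at 204 CPM in AlloTem 3 and 209 CPM in DC only 3. Xist was 754 and 1188 CPM in AlloTem 1 and 2 and 828 and 886 CPM in DC only 1 and 2, and there the Y-linked sum was 5.70 and 0 CPM in AlloTem 1 and 2 and 0 CPM in DC only 1 and 2.

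The label of the cells held in every library. The summed level of 8 general DC markers, among them the MHC class II genes Cd74 and H2-Ab1, was 10445, 16045 and 8994 CPM in AlloTem and 10529, 10159 and 12482 CPM in DC only. Markers of type 1 conventional DCs, the cross-presenting subset, summed to 3104, 3960.1 and 3481 CPM in AlloTem and 3754, 3715 and 4194 CPM in DC only. Those of type 2 conventional DCs, the subset that mainly primes CD4 T cells, summed to 2716, 1991 and 1442 CPM in AlloTem and 1799.96, 1762 and 1189 CPM in DC only. Plasmacytoid DC markers were present at 970.3, 1194 and 822 CPM in AlloTem and 1484, 1483 and 697 CPM in DC only. In each of these 4 lists the ranges of the groups overlapped. In such mixed cells fewer cells of a type and less RNA per cell cannot be told apart.

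T cell RNA was higher in AlloTem than in DC only. The 23 T cell markers summed to 321, 197 and 168 CPM in AlloTem libraries 1 to 3 and 322, 754 and 607 CPM in SynTem libraries 1 to 3. In LPS libraries 1 to 3, without added T cells, the sum was 193, 121 and 78.0 CPM. In DC only libraries 1 to 3 it was 94.6, 111 and 72.3 CPM. AlloTem did not overlap DC only but overlapped LPS. All 23 had counts in both AlloTem and DC only and a positive log2 fold change between them (median 1.91). Of these 8 rose (9 by DESeq2, 2 by limma voom): Cd3e, Cd3g, Cd3d, Trac, Bcl11b, Icos, Lat and Cd4. Cd3e, a chain of the T cell receptor complex, was 6.55, 2.93 and 3.92 CPM in AlloTem and 0, 0.0571 and 0.245 CPM in DC only. It was near 0 in DC only and low in AlloTem. Cd4 is also expressed by DCs. The most abundant markers, Tcf7, a transcription factor, and Lck, the kinase of the T cell receptor, did not pass: Tcf7 was 57.2, 65.2 and 26.9 CPM in AlloTem and 28.8, 29.6 and 25.7 CPM in DC only, and Lck was 40.4, 14.3 and 10.6 CPM in AlloTem and 10.8, 13.4 and 4.11 CPM in DC only (edgeR adjusted p = 0.3501 and 0.562). Cd3e did not pass without AlloTem 1 or DC only 1 or 2 (adjusted p = 0.0568 to 0.124). Lat did not pass without DC only 1, 2 or 3 (adjusted p = 0.0653 to 0.109). Bcl11b did not pass without AlloTem 1 or 2 or DC only 1 or 2 (adjusted p = 0.0557 to 0.109). Icos did not pass without AlloTem 1 or DC only 1, 2 or 3 (adjusted p = 0.0524 to 0.109). Cd3d, Trac and Cd4 passed without AlloTem 3, but not when any of the other libraries was left out (adjusted p = 0.0584 to 0.163). Cd3g passed in none of the 6 such fits (adjusted p = 0.05395 to 0.139). With the batch as a block Cd3g did not pass (adjusted p = 0.0604).

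Of 9 markers of basophils and mast cells 8 had a positive log2 fold change, with a median log2 fold change of 3.67 and batch medians of 3.501, 1.501 and 2.47. Their sum, Kit included, was 433, 402 and 328 CPM in AlloTem and 258, 265 and 316 CPM in DC only. Cpa3, the mast cell carboxypeptidase, was the only one that passed by edgeR. At an unadjusted p under 0.05 there were 8, by DESeq2 5 passed, and by limma voom 0 did. Mcpt8, a basophil protease, was 52.5, 7.74 and 5.38 CPM in AlloTem and 2.13, 1.77 and 0.343 CPM in DC only (log2 3.96 ± 1.27, edgeR adjusted p = 0.193). Neutrophil markers summed to 307, 109 and 117 CPM in AlloTem and 50.5, 56.03 and 124 CPM in DC only, macrophage markers to 177, 93.3 and 52.4 CPM in AlloTem and 46.2, 45.8 and 64.1 CPM in DC only, and erythroid and platelet markers to 60.9, 54.3 and 51.3 CPM in AlloTem and 10.2, 9.995 and 46.05 CPM in DC only. Natural killer cell markers summed to 909, 292 and 187 CPM in AlloTem and 433, 443 and 133 CPM in DC only, and B cell markers to 462, 414 and 353 CPM in AlloTem and 464, 493 and 409 CPM in DC only. By edgeR 0 members of these 5 lists passed; 10 did at an unadjusted p under 0.05, 5 by DESeq2 and 0 by limma voom. With the batch block 2 B cell markers rose, singled out after their values were seen. Cd79b, a chain of the B cell receptor complex, was 12.8, 20.7 and 14.9 CPM in AlloTem and 8.76, 10.3 and 10.8 CPM in DC only, and Blk, a B cell kinase, was 8.31, 8.88 and 9.77 CPM in AlloTem and 3.38, 4.74 and 4.36 CPM in DC only (edgeR adjusted p = 0.0407 and 0.0286 with the block). Among the 6 libraries AlloTem 1 had the highest sum in the T cell, natural killer cell, macrophage, neutrophil, basophil and erythroid lists. The part of these cells in the gene results was not tested.

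**Figure D1:**
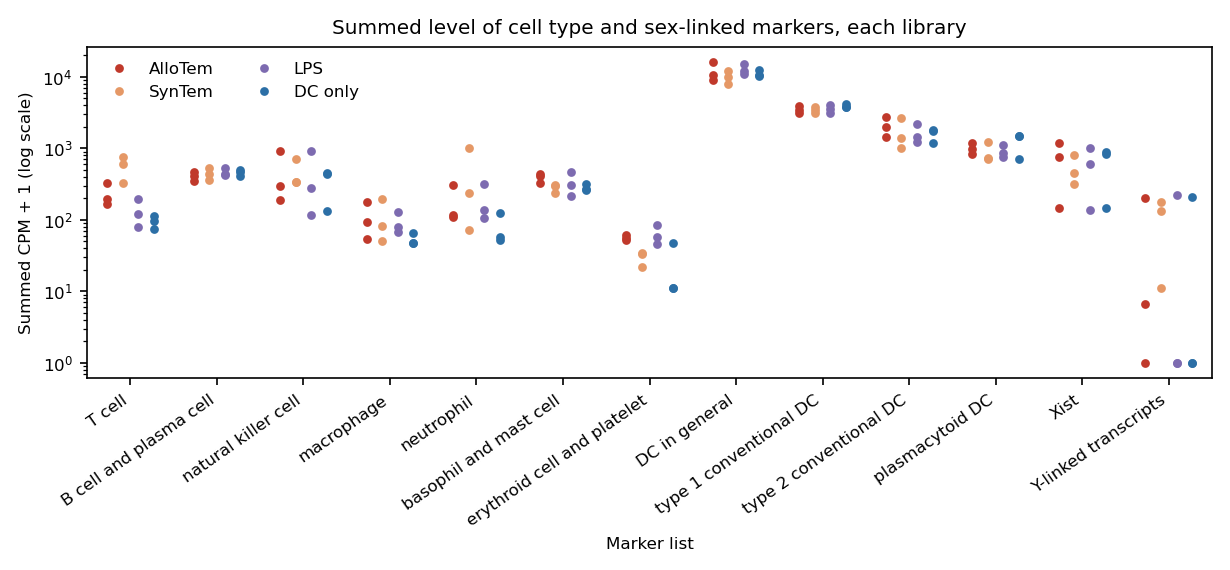
Summed CPM (plus 1, log scale) of the markers of each cell type, of Xist and of 4 Y-linked transcripts, 1 point per library, with AlloTem left of SynTem, LPS and DC only. The T cell sum lies at 168 to 321 CPM in AlloTem and 72.3 to 111 CPM in DC only, while general DC markers lie at 8994 to 16045 CPM in AlloTem and 10159 to 12482 CPM in DC only.

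With alloreactive T cells 253 of 14413 genes changed, and more rose than fell. By the edgeR quasi-likelihood test with Benjamini-Hochberg adjustment (adjusted p under 0.05), 194 genes were higher in AlloTem, which is 1.35% of the genes tested, and 59 were lower, which is 0.409%. Rises were large: 165 of the 194 were at least 2-fold, and their median log2 fold change was 2.09. Falls were shallow, with 15 of 59 at least 2-fold and a median of -0.75, and the deepest was -2.82. The genes that rose were mostly scarce in DC only, with a median level there of 5.94 CPM. The genes that fell were well expressed there, with a median of 105 CPM. For all 253 the AlloTem and DC only libraries did not overlap, against 2475 of all 14413 genes (17.2%). It follows from this that their ratio had the same sign in 3 of 3 batches. At an unadjusted p under 0.05 there were 1836 genes, 1088 of them higher.

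A pairing of same-numbered libraries was assumed and not shown for every batch. Deviations from group means went together in batch 3 (correlation 0.516) but did not tell batches 1 and 2 apart. With the batch held as a block on that assumption, the fit called 420 genes, 286 higher (1.98%) and 134 lower (0.93%). Among them were 240 of the 253. The count leaned on single libraries. It was 114, 92 and 323 without AlloTem 1, 2 or 3, 42 and 43 without DC only 1 or 2 and 122 without DC only 3, and 36 without both libraries of batch 3 and the other groups' batch 3 libraries. The sign held for all 253 genes in each of these fits, where the lack of overlap left little room for a change. Of the 253, 34 (26 higher, 8 lower) passed in each of the 6 that left out 1 library.

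**Figure D2:**
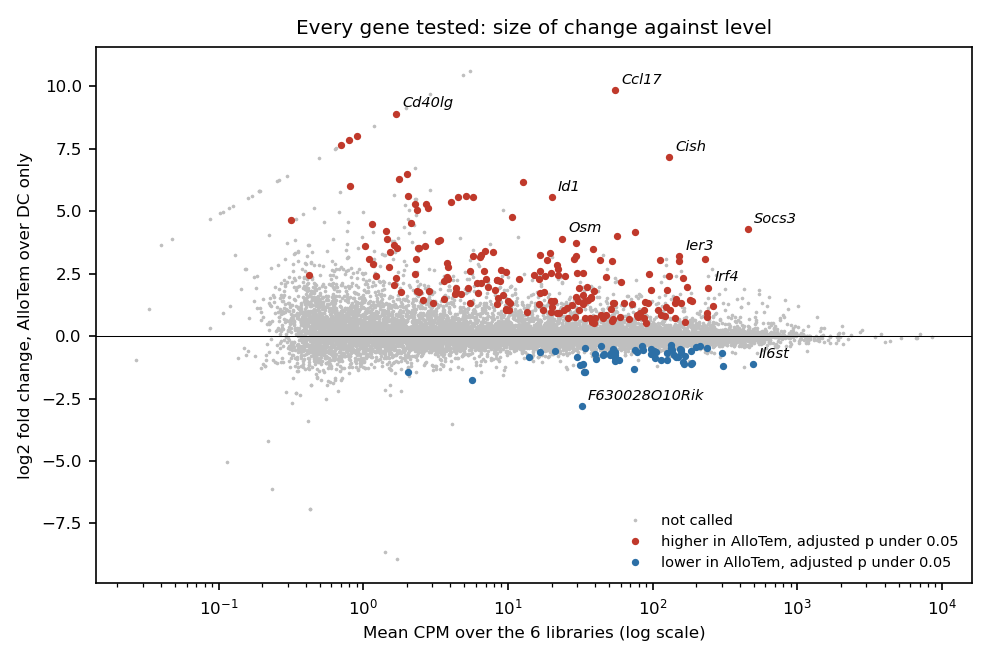
Log2 fold change of AlloTem over DC only (vertical axis) against the mean CPM over the 6 libraries (horizontal axis, log scale) for the 14413 genes tested; red and blue points passed at an adjusted p under 0.05. The 194 genes above 0 reach a log2 fold change of 9.85 (Ccl17), and the 59 below 0 reach -2.82 (F630028O10Rik).

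The largest rise was in Ccl17, one of the chemokine ligands of CCR4 on T cells. The 15 largest rises and 15 largest falls were named only where AlloTem and DC only libraries did not overlap. Their separation was therefore a condition of the choice and not a further result. Ccl17 (ENSMUSG00000031780, chr8:94810453-94812036 in GRCm38) was 72.7, 189.99 and 66.05 CPM in AlloTem libraries 1 to 3, against 0, 0.343 and 0 CPM in DC only libraries 1 to 3. It was all but absent without T cells, with 6 counts over the 3 DC only libraries. The log2 fold change was 9.85 ± 0.94 (here and after, ± SE; edgeR adjusted p = 0.00171). Cish (ENSMUSG00000032578, chr9:107296026-107302784), the feedback inhibitor that STAT5 induces, was 259.8, 309 and 205 CPM in AlloTem and 2.13, 1.88 and 1.47 CPM in DC only. The lowest AlloTem library was far above the highest DC only library, with a log2 fold change of 7.15 ± 0.74 (edgeR adjusted p = 0.00214) and log2 batch ratios of 6.63, 7.02 and 6.71. An antisense transcript shares 11.5% of its exon bases. Cpa3 (ENSMUSG00000001865) was 47.3, 4.56 and 23.4 CPM in AlloTem and 0.313, 0.571 and 0.147 CPM in DC only, so that its AlloTem libraries differed among themselves by more than those of Cish (log2 6.18 ± 1.04, edgeR adjusted p = 0.0191). Ccl17 and Cish passed in all 6 edgeR fits that each left out 1 library (adjusted p = 0.00296 to 0.0268). Cpa3 did not pass without DC only 1, 2 or 3 (adjusted p = 0.0669 to 0.1103).

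The promoters of Ccl17 and Cish are shown because they are the largest rises and both hold letters of a STAT site. RefSeq (GRCm38.p6) gives the 250 bases before and 30 bases from the start site of each, on the plus strand, 5′ to 3′, at chr8:94810203-94810482 for Ccl17 and chr9:107296409-107296688 for Cish. Capitals mark TTCNNNGAA, the STAT form, and, at the first capital run of Ccl17, the STAT6 form, which has the same arms with 4 bases between.
Ccl17: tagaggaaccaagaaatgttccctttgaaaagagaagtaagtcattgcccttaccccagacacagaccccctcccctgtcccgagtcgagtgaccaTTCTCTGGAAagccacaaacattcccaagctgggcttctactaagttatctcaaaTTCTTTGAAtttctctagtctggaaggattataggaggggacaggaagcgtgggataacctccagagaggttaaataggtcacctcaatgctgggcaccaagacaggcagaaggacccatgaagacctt
Cish: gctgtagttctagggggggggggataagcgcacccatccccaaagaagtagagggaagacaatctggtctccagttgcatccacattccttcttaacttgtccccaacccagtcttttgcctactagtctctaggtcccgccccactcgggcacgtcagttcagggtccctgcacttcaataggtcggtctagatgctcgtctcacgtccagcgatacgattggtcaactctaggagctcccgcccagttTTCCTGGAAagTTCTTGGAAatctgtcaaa

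In Ccl17 the STAT6 form lay at -154 to -145 and the STAT form at -99 to -91, counted from the start site. In Cish the STAT form stood at 1 to 9 and 12 to 20, at the start site itself. The window of Cpa3 held none of the 4 motifs searched on both strands, which were these forms, GGNNTTTCC (a form of the NF-kB site) and TGANTCA (AP-1). The STAT form was in 7.83% of 32851 promoter windows, in 6.67% of those of genes tested, in 18 of 166 windows (10.8%) of genes that rose and in 4 of 64 (6.25%) of genes that fell. The STAT6 form was in 6.50% of all windows, 5.21% of those of genes tested, 7.23% of those of genes that rose and 1.56% of those of genes that fell. AP-1 letters were in 7.46% of all windows, 4.94% of those of genes tested, 9.04% of those of genes that rose and 4.69% of those of genes that fell. The NF-kB form was in 5.49% of all windows, 5.91% of those of genes tested, 4.82% of those of genes that rose and 9.38% of those of genes that fell. These shares describe letters, not binding.

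Secreted factors were among the 15 largest rises. Lif, a cytokine of the gp130 family, was 12.1, 13.3 and 4.67 CPM in AlloTem and 0.2504, 0 and 0.343 CPM in DC only (log2 5.59 ± 1.01, edgeR adjusted p = 0.0241). Osm, its close relative oncostatin M, was 54.1, 45.6 and 32.5 CPM in AlloTem and 2.57, 3.88 and 2.4002 CPM in DC only (log2 3.90 ± 0.47, edgeR adjusted p = 0.00438). Hbegf, a ligand of the epidermal growth factor receptor, was 8.17, 21.1 and 4.25 CPM in AlloTem and 0.2504, 0.343 and 0.09797 CPM in DC only (log2 5.58 ± 0.90, edgeR adjusted p = 0.0159). Lif and Hbegf were barely detected without T cells, and all 3 genes separated the groups. Ecm1, a secreted matrix protein, was 28.3, 8.83 and 24.6 CPM in AlloTem and 0.376, 0.685 and 1.18 CPM in DC only (log2 4.75 ± 0.53, edgeR adjusted p = 0.00266). Osm and Ecm1 passed in all 6 edgeR fits that each left out 1 library (adjusted p = 0.00168 to 0.0364). Hbegf did not pass without DC only 1, 2 or 3 (adjusted p = 0.0571 to 0.0933). Lif passed without AlloTem 3, but not when any of the other libraries was left out (adjusted p = 0.0568 to 0.1196).

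Socs3 and Socs1, which block the JAK kinases of cytokine receptors, rose although DCs alone already expressed them. Socs3 was 1181, 913 and 493 CPM in AlloTem and 56.1, 53.4 and 24.5 CPM in DC only, with library 3 lowest in both groups (log2 4.27 ± 0.51, edgeR adjusted p = 0.00438; log2 batch ratios 4.38, 4.08 and 4.30). Socs1 was 91.03, 242 and 93.1 CPM in AlloTem and 12.5, 9.595 and 2.16 CPM in DC only, with AlloTem 2 highest (log2 4.14 ± 0.79, edgeR adjusted p = 0.0293). With the batch block Socs1 no longer passed (edgeR adjusted p = 0.0644). Spsb1, an adaptor of a ubiquitin ligase with a SOCS box, was 16.1, 13.6 and 8.17 CPM in AlloTem and 1.13, 0.857 and 1.52 CPM in DC only (log2 3.42 ± 0.52, edgeR adjusted p = 0.0109). Socs3 passed in all 6 edgeR fits that each left out 1 library (adjusted p = 0.00429 to 0.0324). Spsb1 did not pass without DC only 1 or 2 (adjusted p = 0.0797 to 0.0842). Socs1 passed without AlloTem 3, but not when any of the other libraries was left out (adjusted p = 0.0524 to 0.135).

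Regulators of transcription and signalling completed the list. Id1, which holds basic helix-loop-helix transcription factors off DNA, was 56.9, 31.9 and 28.99 CPM in AlloTem and 1.06, 0.857 and 0.588 CPM in DC only (log2 5.55 ± 0.58, edgeR adjusted p = 0.00209). Gadd45g, a stress-induced adaptor, was 21.8, 62.8 and 22.6 CPM in AlloTem and 4.76, 3.94 and 2.11 CPM in DC only (log2 3.31 ± 0.43, edgeR adjusted p = 0.00581). Both separated the groups in every library. Dll4, a Notch ligand, was 9.83, 27.4 and 6.18 CPM in AlloTem and 1.25, 1.94 and 0.9797 CPM in DC only (log2 3.38 ± 0.66, edgeR adjusted p = 0.0303). Lrrc32, which tethers latent TGF-beta at the cell surface, was 27.97, 117 and 19.2 CPM in AlloTem and 4.88, 5.83 and 1.81 CPM in DC only (log2 3.72 ± 0.80, edgeR adjusted p = 0.0489). AlloTem 2 was highest for Gadd45g, Dll4 and Lrrc32. Id1 and Gadd45g passed in all 6 edgeR fits that each left out 1 library (adjusted p = 0.00408 to 0.0446). Dll4 and Lrrc32 passed without AlloTem 3, but not when any of the other libraries was left out (adjusted p = 0.0524 to 0.189).

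Of the rises below the 15 largest that also passed in each of the 6 fits without 1 library, Fzd7 and Plscr1 were singled out after their values were seen. Fzd7, a receptor for Wnt proteins, was 47.3, 56.9 and 42.9 CPM in AlloTem and 11.3, 10.7 and 16.7 CPM in DC only (log2 1.92 ± 0.23, edgeR adjusted p = 0.00428). Plscr1, a phospholipid scramblase, was 45.97, 79.04 and 42.3 CPM in AlloTem and 15.8, 14.4 and 12.2 CPM in DC only (log2 1.98 ± 0.24, edgeR adjusted p = 0.00438). The groups stayed apart for both genes.

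**Figure D3:**
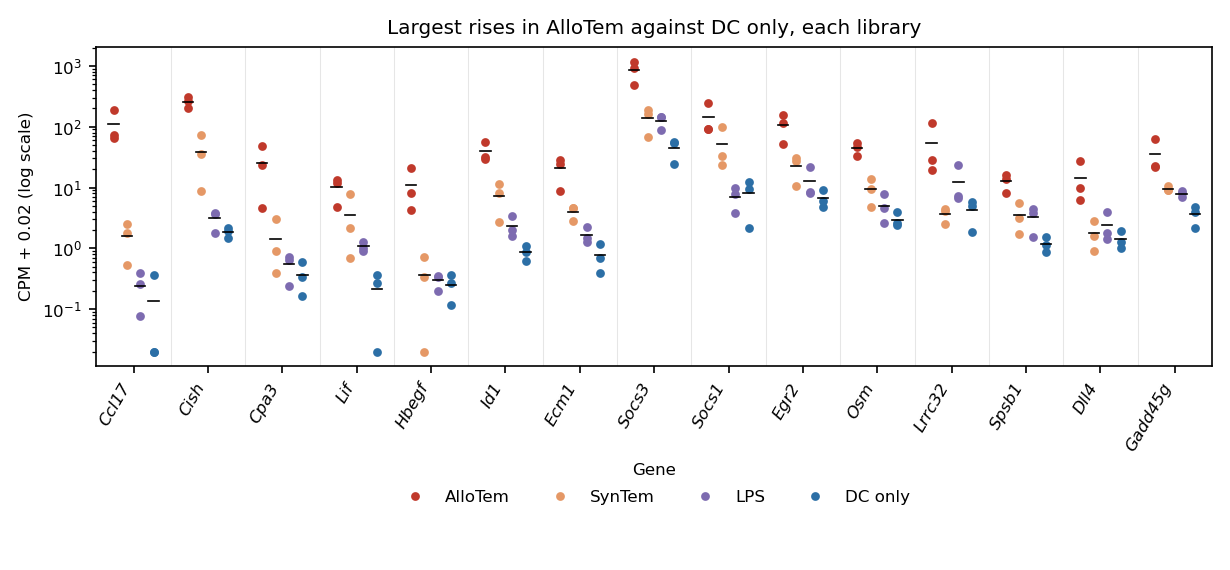
CPM plus 0.02 (log scale) of the 15 largest rises, 1 point per library and a bar at the group mean, with AlloTem left of SynTem, LPS and DC only. AlloTem and DC only points do not overlap for any of the 15 genes, which was a condition for naming them. Socs3 lies at 493 to 1181 CPM in AlloTem and 24.5 to 56.1 CPM in DC only.

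Receptors and a channel subunit were among the 15 largest falls. Il6st, the gp130 chain shared by the receptors of interleukin-6, Lif and Osm, was 298, 273 and 352 CPM in AlloTem libraries 1 to 3 and 682, 721 and 619 CPM in DC only libraries 1 to 3. All AlloTem libraries were below all DC only libraries (log2 -1.13 ± 0.12, edgeR adjusted p = 0.00171). Il6st was lower in the cultures where the ligand genes Lif, Osm and Il6 were higher. Lpar6, a receptor for lysophosphatidic acid, was 22.1, 10.7 and 21.2 CPM in AlloTem and 38.5, 39.2 and 68.4 CPM in DC only (log2 -1.44 ± 0.29, edgeR adjusted p = 0.0328); 7.56% of its exon bases are shared with Rb1 on the other strand. P2ry6, a receptor for extracellular UDP, was 23.03, 12.2 and 23.5 CPM in AlloTem and 36.3, 41.5 and 52.5 CPM in DC only (log2 -1.15 ± 0.23, edgeR adjusted p = 0.0359). Kcne3, a subunit of potassium channels, was 2.52, 2.28 and 2.83 CPM in AlloTem and 9.45, 9.94 and 6.61 CPM in DC only (log2 -1.76 ± 0.29, edgeR adjusted p = 0.0164), the largest relative fall under the naming rule. Il6st passed in all 6 edgeR fits that each left out 1 library (adjusted p = 0.00286 to 0.0162). Kcne3 did not pass without AlloTem 1 or 2 or DC only 1 or 2 (adjusted p = 0.0534 to 0.0851). Lpar6 and P2ry6 passed without AlloTem 3, but not when any of the other libraries was left out (adjusted p = 0.0576 to 0.125).

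Sensing of nucleic acids in endosomes was represented by Tlr9, the receptor for unmethylated CpG DNA. Tlr9 (ENSMUSG00000045322, chr9:106222598-106226883) was 127, 114 and 107 CPM in AlloTem and 269.5, 294 and 192 CPM in DC only, with the highest AlloTem library below the lowest DC only library (log2 -1.12 ± 0.21, edgeR adjusted p = 0.0272). Rab7b, a GTPase of late endosomes that in macrophages limits Toll-like receptor signalling, was 124, 103 and 136 CPM in AlloTem and 238, 260.5 and 265 CPM in DC only (log2 -1.07 ± 0.14, edgeR adjusted p = 0.00562). Tifab, related to the TRAF6 adaptor Tifa and an inhibitor of it, was 187, 136 and 230.01 CPM in AlloTem and 435, 433 and 419 CPM in DC only (log2 -1.22 ± 0.15, edgeR adjusted p = 0.00438). These falls were near 2-fold and without overlap between the groups, but the DC only libraries of Tlr9 were spread from 192 to 294 CPM. Rnase6, a secreted ribonuclease with antibacterial activity in humans, was the most uniform, at 85.05, 86.2 and 83.3 CPM in AlloTem and 169, 173 and 158 CPM in DC only (log2 -0.97 ± 0.09, edgeR adjusted p = 9.73e-04). Card10, a scaffold that links receptors to NF-kB, was 26.97, 16.1 and 18.9 CPM in AlloTem and 42.8, 42.4 and 50.7 CPM in DC only (log2 -1.13 ± 0.22, edgeR adjusted p = 0.0316). Rab7b, Tifab and Rnase6 passed in all 6 edgeR fits that each left out 1 library (adjusted p = 0.00286 to 0.0332). Tlr9 passed without DC only 3, but not when any of the other libraries was left out (adjusted p = 0.0644 to 0.131). Card10 passed without AlloTem 1, but not when any of the other libraries was left out (adjusted p = 0.0789 to 0.122).

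Bcl6, a transcriptional repressor needed for conventional DC development, was 104, 88.5 and 115 CPM in AlloTem and 223, 229.8 and 220.2 CPM in DC only (log2 -1.13 ± 0.21, edgeR adjusted p = 0.0257). Bbc3, the pro-death protein Puma, was 41.6, 25.9 and 41.7 CPM in AlloTem and 85.000, 65.4 and 68.97 CPM in DC only (log2 -1.005 ± 0.18, edgeR adjusted p = 0.0247). Sgk1, the serum- and glucocorticoid-regulated kinase, was 49.9, 37.1 and 41.3 CPM in AlloTem and 106, 108 and 102 CPM in DC only (log2 -1.30 ± 0.24, edgeR adjusted p = 0.0267). For each of these genes all DC only libraries were above all AlloTem libraries. Rnd3, a small GTP-binding protein that loosens the actin skeleton, was 125, 92.6 and 101 CPM in AlloTem and 224, 219.5 and 216 CPM in DC only (log2 -1.05 ± 0.14, edgeR adjusted p = 0.00607). Bahcc1, a chromatin protein, was 82.1, 71.003 and 78.3 CPM in AlloTem and 181, 158 and 115 CPM in DC only (log2 -0.97 ± 0.18, edgeR adjusted p = 0.0241). Snx22, a sorting nexin that marks type 1 conventional DCs, was 13.2, 19.6 and 22.2 CPM in AlloTem and 47.8, 39.1 and 60.99 CPM in DC only (log2 -1.43 ± 0.29, edgeR adjusted p = 0.0353). Snx22 shares 28.5% of its exon bases with Ppib on the other strand, and its value is uncertain since the strand setting of the counting is not given in the sources used here. Rnd3 passed in all 6 edgeR fits that each left out 1 library (adjusted p = 0.00571 to 0.0364). Bbc3 did not pass without DC only 1, 2 or 3 (adjusted p = 0.0568 to 0.117). Bahcc1 did not pass without AlloTem 1 or 2 or DC only 1 or 2 (adjusted p = 0.0576 to 0.1105). Bcl6 and Snx22 passed without AlloTem 3, but not when any of the other libraries was left out (adjusted p = 0.0609 to 0.124). Sgk1 passed in none of the 6 such fits (adjusted p = 0.0526 to 0.113).

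The other 44 falls, which include F630028O10Rik, ended at a log2 fold change of -0.36. Of the 8 falls that passed in each of the 6 fits without 1 library, Arl11 and Evi2b are outside the naming rule and were singled out for that after their values were seen. Arl11, a small GTPase known as a tumour suppressor, was 30.4, 37.1 and 33.6 CPM in AlloTem and 54.96, 54.6 and 63.5 CPM in DC only (log2 -0.78 ± 0.10, edgeR adjusted p = 0.00562). Evi2b, a membrane protein of myeloid cells, was 231, 239 and 224 CPM in AlloTem and 373, 404 and 338 CPM in DC only (log2 -0.68 ± 0.09, edgeR adjusted p = 0.00529). Every AlloTem library was below every DC only library for both. Evi2b shares 98.5% of its exon bases with Evi2, so the values of these 2 genes cannot be told apart.

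**Figure D4:**
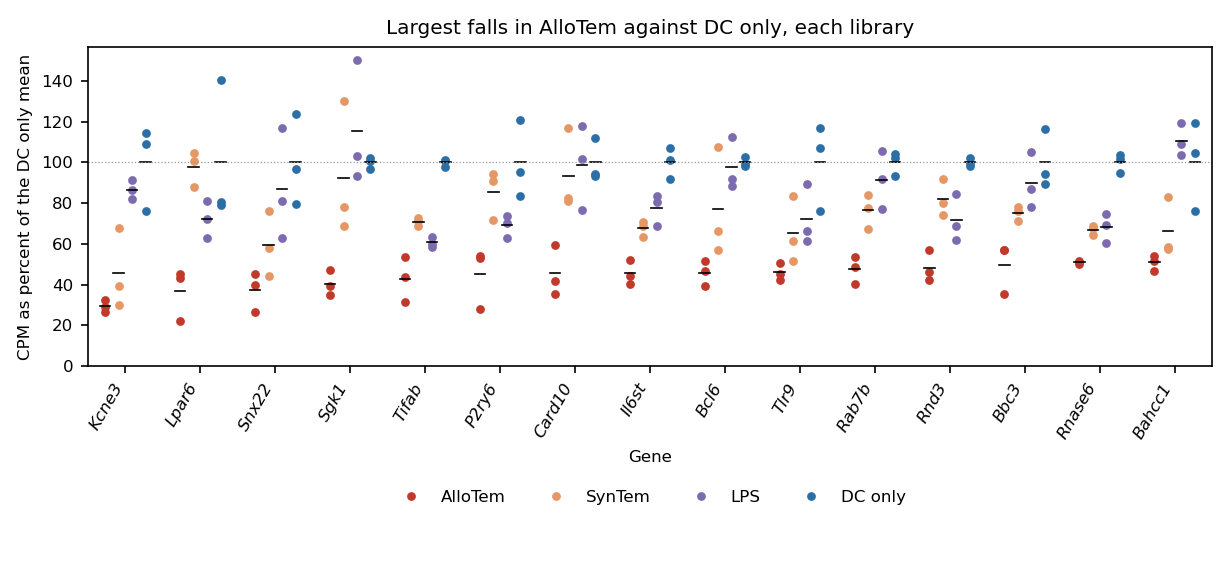
CPM of the 15 largest falls as a percent of the DC only mean of the gene, 1 point per library and a bar at the group mean, with AlloTem left of SynTem, LPS and DC only. All AlloTem points lie below all DC only points of the same gene, which was a condition for naming it. Rnase6 is at 83.3 to 86.2 CPM in AlloTem and 158 to 173 CPM in DC only.

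The deepest fall of all was in a transcript outside the naming rule, F630028O10Rik, singled out after its values were seen because its span holds miR-223. F630028O10Rik (ENSMUSG00000078122) was 11.3, 5.16 and 7.601 CPM in AlloTem and 55.6, 50.9 and 63.4 CPM in DC only, 7.04-fold lower (log2 -2.82 ± 0.27, edgeR adjusted p = 0.00167). Mir155hg, the host of miR-155, moved up, at 24.6, 47.9 and 13.5 CPM in AlloTem and 6.01, 4.91 and 3.18 CPM in DC only (log2 2.61 ± 0.45, edgeR adjusted p = 0.0203). AA467197, whose span holds miR-147, was 18.7, 54.7 and 17.5 CPM in AlloTem and 3.82, 3.83 and 2.06 CPM in DC only (log2 3.23 ± 0.47, edgeR adjusted p = 0.0101). Groups did not overlap for any of these hosts. F630028O10Rik passed in all 6 edgeR fits that each left out 1 library (adjusted p = 9.09e-04 to 0.01204). AA467197 did not pass without DC only 1 or 2 (adjusted p = 0.0599 to 0.0615). Mir155hg did not pass without DC only 1, 2 or 3 (adjusted p = 0.0662 to 0.106). miR-223 is a miRNA of myeloid cells, miR-155 is induced in activated immune cells and is needed for T cell priming by DCs, and miR-147 is induced by Toll-like receptor signals in macrophages. In all, 14 of the 253 genes span a RefSeq hairpin on their own strand. The libraries counted long transcripts and not mature miRNAs. For miR-223 and miR-155 the mature sequence of only 1 arm is printed. For miR-147 only the 5p arm was listed, and the Toll-like receptor background above is not tied to that arm. These mature sequences, from RefSeq (GRCm38.p6), are given with the seed (bases 2 to 8), by which a miRNA finds its targets, in capitals.
mmu-miR-223-3p: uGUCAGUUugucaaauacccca
mmu-miR-155-5p: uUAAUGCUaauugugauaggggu
mmu-miR-147-5p: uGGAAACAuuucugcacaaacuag
The 3 seeds differ. On GRCm38.p6 mmu-miR-223-3p lies at chrX:96242884-96242905, mmu-miR-155-5p at chr16:84714143-84714165 and mmu-miR-147-5p at chr2:122640814-122640837, all on the plus strand.

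Cd40lg, Il21 and Lta, which encode signals of T cells, rose with alloreactive T cells. Of 17 genes of T cell cytokines and ligands 10 had enough counts to be tested, and of these 3 rose, 7 did not pass and none fell, with a median log2 fold change of 4.04 (batch medians 2.43, 2.74 and 1.53), against 0.00097 over all genes. This list and those below were chosen with earlier results of these data known, so their shares and medians are descriptive. The shares over all genes, 1.35% higher and 0.409% lower, stand beside each list below. A short list with 0 calls is near those shares and is not a result about its members. Cd40lg, the ligand of CD40 on DCs, was 3.75, 4.27 and 2.03 CPM in AlloTem and 0 CPM in each DC only library. It was at least 59.9-fold higher, taking 3 counts over the DC only group as the floor (edgeR adjusted p = 0.00562). Il21, a cytokine of CD4 T cells, was 1.71, 1.84 and 0.661 CPM in AlloTem and 0 CPM in each DC only library, at least 25.1-fold higher (edgeR adjusted p = 0.0348, and 0.05004 with the batch block). Lta, lymphotoxin alpha, was 10.3, 17.9 and 3.07 CPM in AlloTem and 1.88, 0.857 and 0.686 CPM in DC only (log2 3.19 ± 0.63, edgeR adjusted p = 0.0321). All 3 were highest in AlloTem 2. Which cell made them was not tested. Csf2, which encodes GM-CSF, was 3.94, 8.09 and 1.46 CPM in AlloTem and 0.313, 0.0571 and 0.09797 CPM in DC only but did not pass (edgeR adjusted p = 0.0528), and Il13 was 5.13, 5.41 and 1.56 CPM in AlloTem and 0.188, 0.171 and 0 CPM in DC only (edgeR adjusted p = 0.0793). Il4 did not pass the filter on low counts, at 1.85, 2.18 and 0.472 CPM in AlloTem and 0 CPM in each DC only library. Csf2, Il13 and Il4 were singled out after their values were seen. Cd40lg passed in all 6 edgeR fits that each left out 1 library (adjusted p = 0.00726 to 0.0288). Il21 and Lta passed without AlloTem 3, but not when any of the other libraries was left out (adjusted p = 0.0744 to 0.169).

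The receptors through which DCs read these signals moved little. Of 18 tested, only Il4ra, the receptor chain for interleukin-4 and interleukin-13, rose (list median 0.22). Il4ra was 211, 267 and 135 CPM in AlloTem and 93.8, 91.8 and 61.6 CPM in DC only, with no overlap (log2 1.31 ± 0.28, edgeR adjusted p = 0.0438). Cd40, singled out after its values were seen, was 156, 395 and 115 CPM in AlloTem and 133, 113 and 50.1 CPM in DC only, with AlloTem 2 far above the rest and AlloTem 3 within the DC only range (log2 1.17 ± 0.52, edgeR adjusted p = 0.384). Il4ra passed without AlloTem 3, but not when any of the other libraries was left out (adjusted p = 0.114 to 0.162).

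Many genes that interleukin-4 and STAT6 are known to induce rose. Of 16 tested, 8 rose and none fell (median 1.73; batch medians 1.77, 2.06 and 1.38): Ccl17, Socs1, Egr2, Cdh1, Pdcd1lg2, Irf4, Clec10a and Il4ra. With the batch block 7 rose. By limma voom 5 passed and by DESeq2 9. Over all genes 1.35% rose, but the list was chosen with earlier results of these data known, so this contrast is not a test of it. Egr2, a zinc finger transcription factor, was 156, 115 and 51.03 CPM in AlloTem and 9.14, 5.997 and 4.8005 CPM in DC only (log2 4.02 ± 0.60, edgeR adjusted p = 0.01204). Cdh1, E-cadherin, was 32.8, 47.9 and 35.1 CPM in AlloTem and 5.82, 9.25 and 2.99 CPM in DC only (log2 2.68 ± 0.38, edgeR adjusted p = 0.00871). Both were several times higher in the lowest AlloTem library than in the highest DC only library. Ccl22, the neighbour of Ccl17 and the other ligand of CCR4, was 139, 423 and 46.5 CPM in AlloTem and 49.1, 50.4 and 14.7 CPM in DC only, and AlloTem 3 overlapped DC only (log2 2.41 ± 0.80, edgeR adjusted p = 0.213); it was singled out after its values were seen. Cdh1 did not pass without DC only 1 (adjusted p = 0.0657). Egr2 did not pass without DC only 1, 2 or 3 (adjusted p = 0.0531 to 0.08296).

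Of 14 tested members of the GM-CSF and STAT5 list 8 rose and 1 fell (median 1.86, with batch medians of 1.26, 2.15 and 1.64). Among all genes 1.35% rose and 0.409% fell. This list too was chosen with earlier results of these data known, so the contrast is not a test of it. The 8 were Cish, Socs3, Osm, Nfil3, Socs2, Bcl2l1, Pim2 and Pim3. Bcl6, which STAT5 is known to repress, was the member that fell. Nfil3, a basic leucine zipper transcription factor, had the smallest adjusted p among these: 214, 224 and 162 CPM in AlloTem and 26.5, 23.4 and 23.8 CPM in DC only (log2 3.03 ± 0.22, edgeR adjusted p = 4.97e-04). Its replicates were tight in both groups, with log2 batch ratios of 2.99, 3.23 and 2.74. Pim3, a survival kinase, was 63.97, 77.999 and 84.2 CPM in AlloTem and 33.99, 26.04 and 30.8 CPM in DC only (log2 1.32 ± 0.15, edgeR adjusted p = 0.00266). Nfil3 and Pim3 passed in all 6 edgeR fits that each left out 1 library (adjusted p = 6.74e-04 to 0.0237).

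Interferon-induced genes mostly did not pass, where over all genes 1.35% rose and 0.409% fell. Of 22 interferon gamma targets 1 rose, Cd274, although 20 had positive fold changes, 12 had an unadjusted p under 0.05 and 6 passed by DESeq2 (median 1.45; batch medians 0.66, 1.65 and 1.59). Cd274, the inhibitory ligand PD-L1, was 506, 573 and 156 CPM in AlloTem and 56.6, 58.9 and 30.5 CPM in DC only (log2 3.08 ± 0.62, edgeR adjusted p = 0.0359); 14.1% of its exon bases are shared with a transcript on the other strand. Cxcl9, a chemokine for CXCR3-bearing T cells, was 59.2, 553 and 48.4 CPM in AlloTem and 38.1, 35.5 and 4.996 CPM in DC only (edgeR adjusted p = 0.395), and its neighbour Cxcl10 was 162, 595 and 74.8 CPM in AlloTem and 100.02, 105 and 7.59 CPM in DC only (edgeR adjusted p = 0.63002). AlloTem 2 held most of both, and these chemokines were singled out after their values were seen. By edgeR 0 of 21 type I interferon genes passed, as by DESeq2, by limma voom and at an unadjusted p under 0.05, and their median was -0.07, with batch medians of -0.81, 0.18 and 0.39. Within it Cmpk2, a mitochondrial kinase, was 28.2, 34.04 and 30.5 CPM in AlloTem and 53.02, 55.8 and 26.9 CPM in DC only, and Mx1, an antiviral GTPase, 37.99, 78.7 and 25.02 CPM in AlloTem and 78.2, 83.04 and 42.2 CPM in DC only (edgeR adjusted p = 0.488 and 0.741). Cd274 passed without AlloTem 3, but not when any of the other libraries was left out (adjusted p = 0.0946 to 0.152).

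By edgeR 0 of 20 NF-kB subunits, targets and inhibitors passed (median 0.31), with 3 at an unadjusted p under 0.05 and 2 by DESeq2. For this list and the next, the shares over all genes were 1.35% higher and 0.409% lower. Rel, the subunit c-Rel, was 887, 1111 and 557 CPM in AlloTem and 379.7, 414 and 323 CPM in DC only, without overlap (log2 1.19 ± 0.30, edgeR adjusted p = 0.0848), and passed with the batch block (log2 1.15 ± 0.21, adjusted p = 0.0242). Malt1, the protease of the CARD-BCL10 complex, was 533, 1004 and 306 CPM in AlloTem and 225, 244 and 171 CPM in DC only (edgeR adjusted p = 0.0735). Of 27 immediate early genes, which many stimuli switch on within minutes, 6 rose and 1 fell (median 0.84; batch medians 0.89, 0.999 and 1.004). The 6 were Egr2, Ier3, Egr3, Fosl2, Dusp4 and Gadd45b, and the 1 was Sgk1. Ier3, a regulator of survival, was 287, 246 and 289.9 CPM in AlloTem and 34.8, 31.98 and 22.4 CPM in DC only (log2 3.21 ± 0.28, edgeR adjusted p = 9.73e-04). Fosl2, an AP-1 subunit, was 272, 241 and 147 CPM in AlloTem and 44.7, 41.6 and 36.9 CPM in DC only (log2 2.42 ± 0.31, edgeR adjusted p = 0.00562). Both separated the groups with room. Egr3, a relative of Egr2, was 61.8, 79.4 and 26.5 CPM in AlloTem and 10.95, 12.5 and 5.49 CPM in DC only (log2 2.54 ± 0.47, edgeR adjusted p = 0.0263). Ier3 and Fosl2 passed in all 6 edgeR fits that each left out 1 library (adjusted p = 0.002601 to 0.0446). Egr3 passed without AlloTem 3, but not when any of the other libraries was left out (adjusted p = 0.0694 to 0.114).

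Of 16 genes tested in the list of inflammatory and regulatory cytokines, 5 rose and none fell: Lif, Il1a, Osm, Il6 and Csf1. The list median was 2.06, with batch medians of 1.92, 1.90 and 1.48, and over all genes 1.35% rose and 0.409% fell. Which cells made the cytokine and chemokine transcripts was not tested. Il1a, an alarm cytokine, was 4.701, 6.85 and 2.17 CPM in AlloTem and 0.0626, 0.228 and 0.09797 CPM in DC only (log2 5.06 ± 0.70, edgeR adjusted p = 0.00647). Il6, a pro-inflammatory cytokine that signals through gp130, was 36.6, 40.3 and 22.6 CPM in AlloTem and 5.13, 4.85 and 2.01 CPM in DC only (log2 3.06 ± 0.51, edgeR adjusted p = 0.0178). Each AlloTem library exceeded each DC only library for both. Il1b, Il12b and Tnf, singled out after their values were seen, did not pass. Il12b, which drives Th1 responses, was 63.9, 35.6 and 9.91 CPM in AlloTem and 4.19, 3.598 and 4.56 CPM in DC only (log2 3.14 ± 0.85, edgeR adjusted p = 0.122). Il1b, the inflammasome-dependent cytokine interleukin-1 beta, was 1044, 1059.8 and 453 CPM in AlloTem and 295, 299.96 and 115 CPM in DC only (log2 1.85 ± 0.66, edgeR adjusted p = 0.259; log2 batch ratios 1.82, 1.82 and 1.98). Tnf was 142, 125 and 59.6 CPM in AlloTem and 105, 93.4 and 30.4 CPM in DC only, with overlap (edgeR adjusted p = 0.836). Of 13 chemokines 2 rose, Ccl17 and Ccl4 (list median 2.32; 5 by DESeq2, 0 by limma voom), and Ccl4, an inflammatory chemokine, was 63.4, 72.3 and 17.5 CPM in AlloTem and 7.26, 7.03 and 3.62 CPM in DC only (log2 3.10 ± 0.61, edgeR adjusted p = 0.03402). Il1a did not pass without DC only 1 (adjusted p = 0.0544). Il6 did not pass without AlloTem 2 or DC only 1, 2 or 3 (adjusted p = 0.0541 to 0.0852). Ccl4 passed without AlloTem 3, but not when any of the other libraries was left out (adjusted p = 0.0897 to 0.141).

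Costimulation and maturation genes rose in part, 5 of 25 (Slamf1, Cd274, Pdcd1lg2, Apol7c and Socs2), with 23 of 25 positive, 10 called by DESeq2 and 1 by limma voom, a list median of 1.48, and medians by batch of 1.28, 1.80 and 0.44. Among all genes the share that rose was 1.35%. Slamf1, a self-binding receptor shared by T cells and activated DCs, was 2.71, 7.64 and 1.56 CPM in AlloTem and 0.0626, 0 and 0.04898 CPM in DC only. With 2 counts in DC only, the pooled ratio was 105 (95% interval 28.9 to 875, counting error only; edgeR adjusted p = 0.00905). Pdcd1lg2, the second ligand of PD-1, was 5.79, 16.7 and 5.62 CPM in AlloTem and 1.25, 1.83 and 1.47 CPM in DC only (log2 2.62 ± 0.45, edgeR adjusted p = 0.0191). Apol7c, an apolipoprotein L family member of activated DCs, was 184, 218 and 78.6 CPM in AlloTem and 25.6, 26.2 and 34.3 CPM in DC only (log2 2.48 ± 0.45, edgeR adjusted p = 0.0263). The classical ligands of CD28 did not pass and were singled out after their values were seen. Cd80 was 81.7, 179 and 54.7 CPM in AlloTem and 38.3, 38.5 and 35.8 CPM in DC only (edgeR adjusted p = 0.0976), and Cd86 137, 249.7 and 105 CPM in AlloTem and 100.1, 94.9 and 107 CPM in DC only (edgeR adjusted p = 0.352). Slamf1 did not pass without DC only 1 or 2 (adjusted p = 0.0599 to 0.0615). Pdcd1lg2 did not pass without DC only 1, 2 or 3 (adjusted p = 0.0615 to 0.109). Apol7c passed without AlloTem 3, but not when any of the other libraries was left out (adjusted p = 0.0653 to 0.135).

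Antigen presentation genes did not pass. As only 1.35% of all genes rose and 0.409% fell, 0 calls in these short lists is near the share over all genes. Of 13 MHC class II genes 0 passed (median 0.07; batch medians -0.01, 0.65 and -0.33), and the same held for 14 MHC class I genes (median 0.04; batch medians -0.15, 0.16 and 0.002). In either list 0 genes passed by edgeR with the batch block, by DESeq2, by limma voom or at an unadjusted p under 0.05. H2-Eb1, a class II chain, was 2093, 3528 and 1397 CPM in AlloTem and 1665, 1498 and 2093 CPM in DC only (log2 0.42 ± 0.33, edgeR adjusted p = 0.694). H2-DMb2, of the peptide-loading complex, was 82.5, 182 and 72.4 CPM in AlloTem and 79.3, 65.6 and 79.01 CPM in DC only (edgeR adjusted p = 0.594). AlloTem 2 was highest for both. Erap1, which trims peptides for class I, was 117, 129 and 107 CPM in AlloTem and 134, 145 and 115 CPM in DC only, and Pdia3, a chaperone of the loading complex, 442, 471 and 437 CPM in AlloTem and 494, 506 and 438 CPM in DC only (edgeR adjusted p = 0.662 and 0.758).

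Of 28 pattern recognition receptors and C-type lectins tested, Clec10a rose, Tlr9 fell and 26 did not pass (median 0.45; batch medians 0.61, 0.11 and -0.13), and with the batch block 2 rose and 4 fell. Clec10a, a lectin for galactose sugars on type 2 conventional DCs, was 47.9, 52.7 and 47.8 CPM in AlloTem and 14.5, 15.02 and 26.9 CPM in DC only (log2 1.39 ± 0.26, edgeR adjusted p = 0.0255). The members that fell only under the block were Tlr3, which senses double-stranded RNA (log2 -1.18 ± 0.18, adjusted p = 0.0115), Tlr12, a sensor of the parasite protein profilin (-0.83 ± 0.16, 0.0246), and Clec9a, the dead-cell receptor of type 1 conventional DCs (-0.52 ± 0.11, 0.0317), all by edgeR. Tlr3 and Clec9a are also in the marker list of type 1 conventional DCs, of which Snx22 fell and 0 rose. That list was mixed in direction, with 5 of its 12 members positive and 7 negative (median log2 fold change -0.13). Of 16 Fc and scavenger receptors 0 passed by edgeR (median 0.51), 4 had an unadjusted p under 0.05 and 1 passed by DESeq2. Fcgr2b, the inhibitory Fc receptor, was 118, 84.6 and 114 CPM in AlloTem and 56.6, 62.4 and 76.4 CPM in DC only and passed with the block alone (edgeR adjusted p = 0.169, and 0.0378 with the block). Mrc1, the mannose receptor, was 11.2, 9.03 and 11.1 CPM in AlloTem and 4.07, 4.51 and 2.11 CPM in DC only (edgeR adjusted p = 0.245). Clec10a did not pass without AlloTem 1 or 2 or DC only 1 or 2 (adjusted p = 0.0584 to 0.129). Tlr9 passed without DC only 3, but not when any of the other libraries was left out (adjusted p = 0.0644 to 0.131).

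Of 19 receptors for migration 2 rose, Gpr183 among them (list median 0.15). Gpr183, an oxysterol receptor that places DCs in the spleen, was 129, 174 and 78.9 CPM in AlloTem and 44.4, 48.4 and 57.2 CPM in DC only (log2 1.35 ± 0.26, edgeR adjusted p = 0.0279). Its groups did not overlap. Ccr7, which guides mature DCs to lymph nodes and was singled out after its values were seen, was 500.1, 331 and 152 CPM in AlloTem and 155, 160.3 and 142 CPM in DC only, with AlloTem 3 within the DC only range (edgeR adjusted p = 0.449). Adhesion genes rose in 3 of 22 (Cdh1, Sdc4 and Cldn1, with a list median of 0.22), beside 1.35% of all genes. Sdc4, a heparan sulfate proteoglycan, was 258, 408 and 145 CPM in AlloTem and 66.8, 65.7 and 27.7 CPM in DC only (log2 2.34 ± 0.41, edgeR adjusted p = 0.0218). Cldn1, a tight junction protein, was 29.5, 80.3 and 40.3 CPM in AlloTem and 17.7, 15.6 and 15.2 CPM in DC only (log2 1.63 ± 0.30, edgeR adjusted p = 0.0249). Cldn1 did not pass without DC only 1, 2 or 3 (adjusted p = 0.0803 to 0.124). Sdc4 did not pass without AlloTem 1 or 2 or DC only 1 or 2 (adjusted p = 0.0524 to 0.0861). Gpr183 passed without AlloTem 3, but not when any of the other libraries was left out (adjusted p = 0.0609 to 0.146).

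Metabolism lists held few calls, where over all genes 1.35% rose and 0.409% fell. Of 24 glycolysis and hypoxia genes Slc2a1 and Vegfa rose (median 0.09); neither is a glycolytic enzyme. Slc2a1, the glucose transporter Glut1, was 68.8, 78.1 and 65.1 CPM in AlloTem and 37.2, 35.7 and 26.01 CPM in DC only (log2 1.10 ± 0.16, edgeR adjusted p = 0.00871). Vegfa, a growth factor of blood vessels, was 22.4, 35.5 and 32.4 CPM in AlloTem and 11.8, 10.7 and 11.6 CPM in DC only (log2 1.40 ± 0.26, edgeR adjusted p = 0.0251). Both separated the groups. Of 22 genes of amino acid and unfolded protein stress Xbp1, the transcription factor of the unfolded protein response, rose, at 337, 253 and 304 CPM in AlloTem and 173, 163 and 191 CPM in DC only (log2 0.76 ± 0.12, edgeR adjusted p = 0.0161). By edgeR 0 of 26 genes of cholesterol and fatty acid synthesis (median -0.10) and 0 of 23 of oxidative phosphorylation (median 0.02) passed, with 0 in either list by DESeq2, by limma voom or at an unadjusted p under 0.05. Dhcr7, an enzyme of late cholesterol synthesis, was 13.9, 15.4 and 14.3 CPM in AlloTem and 20.8, 16.6 and 16.5 CPM in DC only (edgeR adjusted p = 0.424). Cox5b and Uqcrc1, subunits of the respiratory chain, had log2 fold changes of 0.21 ± 0.13 and -0.11 ± 0.09 (edgeR adjusted p = 0.581 and 0.7302). Slc2a1 passed in all 6 edgeR fits that each left out 1 library (adjusted p = 0.01104 to 0.0446). Xbp1 did not pass without AlloTem 1 or DC only 1 or 2 (adjusted p = 0.0514 to 0.09501). Vegfa did not pass without AlloTem 2 or DC only 1, 2 or 3 (adjusted p = 0.0672 to 0.125).

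Genes of cell death and survival changed in both senses, where over all genes 1.35% rose and 0.409% fell. Of 18 tested, 4 rose (Bcl2l1, Bcl2a1a, Bcl2l11 and Bcl2) and Bbc3 fell (median 0.44; batch medians 0.43, 0.60 and 0.30). Bcl2l1, Bcl2a1a and Bcl2 encode proteins that keep cells alive, and Bcl2l11 (Bim) and Bbc3 (Puma) encode proteins that kill them. Bcl2l11 was 271, 259 and 286 CPM in AlloTem and 109.5, 102 and 97.1 CPM in DC only, a tight rise (log2 1.40 ± 0.23, edgeR adjusted p = 0.0159). Bcl2l1 (Bcl-xL) was 60.6, 177 and 55.5 CPM in AlloTem and 23.7, 17.5 and 25.2 CPM in DC only, with AlloTem 2 highest (log2 2.14 ± 0.43, edgeR adjusted p = 0.0359). Bcl2a1a was 51.7, 47.6 and 32.1 CPM in AlloTem and 12.8, 11.8 and 19.7 CPM in DC only (log2 1.57 ± 0.26, edgeR adjusted p = 0.0168), and is uncertain because near-identical copies of it may share reads. Bcl2l11 did not pass without DC only 1, 2 or 3 (adjusted p = 0.0568 to 0.0858). Bcl2l1 did not pass without AlloTem 2 or DC only 1, 2 or 3 (adjusted p = 0.0544 to 0.176). Bcl2a1a did not pass without AlloTem 1 or 2 or DC only 1 or 2 (adjusted p = 0.0524 to 0.0986).

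By edgeR 0 genes of the growth and resting lists passed, where over all genes 1.35% rose and 0.409% fell. Of 28 cell cycle genes 0 passed by edgeR, with 3 at an unadjusted p under 0.05 and 2 by DESeq2 (median -0.03). Cdkn1a, the cell cycle inhibitor p21, was 923, 1371 and 572 CPM in AlloTem and 428, 423 and 107 CPM in DC only (edgeR adjusted p = 0.18997), and Ccnd2, a D-type cyclin, 349, 986 and 339 CPM in AlloTem and 221, 229 and 157 CPM in DC only (edgeR adjusted p = 0.134). AlloTem and DC only did not overlap for either, but AlloTem 2 was far above the other AlloTem libraries for Ccnd2. Of 18 genes of quiescence and glucocorticoid response 0 passed by edgeR, with 3 at an unadjusted p under 0.05 and 2 by DESeq2 (median -0.04). Txnip, a brake on glucose uptake, was 446, 322 and 437 CPM in AlloTem and 652, 615 and 666 CPM in DC only (log2 -0.68 ± 0.15, edgeR adjusted p = 0.0528), and fell with the batch block (adjusted p = 0.0158); 19.4% of its exon bases are shared with Gm15441 on the other strand. Zfp36l2, which promotes mRNA decay, was 352, 114 and 305 CPM in AlloTem and 562, 541 and 702 CPM in DC only (edgeR adjusted p = 0.161). Of 13 heat shock genes 0 passed by edgeR, with 3 at an unadjusted p under 0.05 and 1 by DESeq2. Of the near-identical copies Hspa1a and Hspa1b, whose values are uncertain, Hspa1a was 232, 236 and 168 CPM in AlloTem and 115, 97.7 and 165 CPM in DC only, and Hspa1b was 199.6, 209 and 155 CPM in AlloTem and 108, 91.6 and 152 CPM in DC only (edgeR adjusted p = 0.139 and 0.2003).

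Of 20 transcription factors of DC lineages Irf4 and Nfil3 rose and Bcl6 fell (median -0.03). Irf4, which directs type 2 conventional DCs and their migration, was 358, 477 and 316 CPM in AlloTem and 111, 102 and 88.96 CPM in DC only. Every AlloTem library was far above every DC only library (log2 1.93 ± 0.16, edgeR adjusted p = 9.60e-04; log2 batch ratios 1.69, 2.23 and 1.82). Irf8, its counterpart in type 1 conventional DCs, was 1465, 1330.2 and 1418 CPM in AlloTem and 1711, 1606 and 1669 CPM in DC only (log2 -0.24 ± 0.08, edgeR adjusted p = 0.218). Irf4 passed in all 6 edgeR fits that each left out 1 library (adjusted p = 8.36e-04 to 0.00896).

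**Figure D5:**
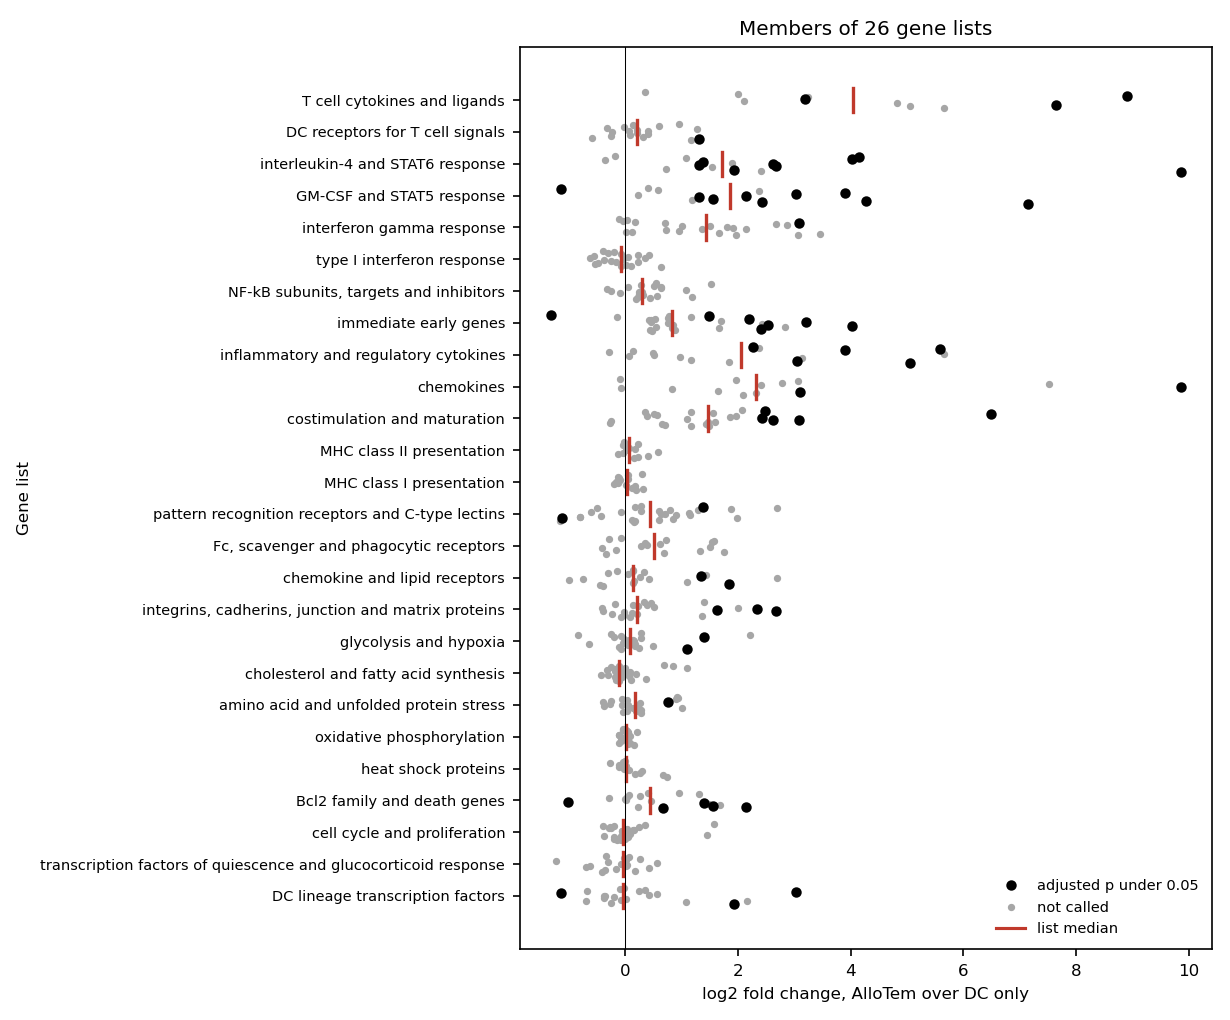
Log2 fold change of AlloTem over DC only (horizontal axis) for each tested member of 26 gene lists (vertical axis), with black points for members that passed at an adjusted p under 0.05, grey for the others and a red bar at the list median. Medians run from -0.10 (cholesterol and fatty acid synthesis) to 4.04 (T cell cytokines and ligands), and MHC lists lie at 0.04 and 0.07.

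A few of these genes were also tested against the other cultures, with the same AlloTem libraries. Against LPS 65 genes differed (0.451% of those tested) and against SynTem 24 (0.167%), by the edgeR quasi-likelihood test. Both counts leaned on single libraries. Against LPS 33 genes differed without AlloTem 2, and 36, 9 and 18 without LPS 1, 2 or 3. Against SynTem 47 differed without AlloTem 3, and 11, 3 and 11 without SynTem 1, 2 or 3. Irf4 was 358, 477 and 316 CPM in AlloTem against 76.2, 93.5 and 78.9 CPM in LPS, a difference of 2.21 ± 0.16 on the log2 scale (adjusted p = 5.44e-04), and its adjusted p against SynTem was 0.00276. Gprc5c, an orphan receptor of the G protein-coupled class singled out after its values were seen, was 54.1, 80.5 and 97.2 CPM in AlloTem, 6.09, 8.43 and 9.298 CPM in LPS and 9.76, 9.42 and 8.82 CPM in DC only (log2 against LPS 3.28 ± 0.28, edgeR adjusted p = 0.00132). The LPS and DC only libraries of Gprc5c lay side by side. Cish was 259.8, 309 and 205 CPM in AlloTem against 3.71, 3.799 and 1.79 CPM in LPS (log2 6.38 ± 0.71, edgeR adjusted p = 0.00534), while against the 8.62, 35.5 and 72.5 CPM of SynTem the difference was 2.73 ± 0.58 and did not pass (adjusted p = 0.115). F630028O10Rik was 11.3, 5.16 and 7.601 CPM in AlloTem, against 50.1, 35.6 and 44.2 CPM in LPS (log2 -2.43 ± 0.27, edgeR adjusted p = 0.00468) and in SynTem 36.9, 27.1 and 24.1 CPM (log2 -1.87 ± 0.27, with an edgeR adjusted p of 0.0198). It was lowest in AlloTem in all 3 batches. By contrast Il6, at 36.6, 40.3 and 22.6 CPM in AlloTem and 20.6, 14.01 and 9.298 CPM in LPS, and Mir155hg, at 24.6, 47.9 and 13.5 CPM in AlloTem and 14.7, 21.96 and 21.6 CPM in LPS, were not shown to differ from LPS (edgeR adjusted p = 0.6305 and 0.9997).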

How the data were processed

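Libraries were made from DNase-treated total RNA with an Illumina TruSeq kit and read as single 50-base ends on a NextSeq, per the labels' protocols. The authors deposited raw counts per gene, with mm10 as the build in the submitters' processing notes. Which aligner, counter, strand setting and annotation they used was not given in the sources used here. Of 57009 identifiers 31565 had 0 counts in all libraries, and 52080 had a symbol in the annotation used here; the others held 0.754% of counts. All libraries came from 4 groups of 3.

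The counts were scaled by TMM, and 14413 genes passed filterByExpr (count of at least 10, total of at least 15). edgeR 4.0.16 in R 4.3.3 fitted 1 mean per group over all 12 libraries, and its quasi-likelihood test with Benjamini-Hochberg adjustment over all genes tested called genes at an adjusted p under 0.05. Within-batch ratios used CPM plus 0.5, and principal components a prior count of 2. A second fit held the batch as a block. Batch and replicate numbers are the same in the deposited batch table. Same-numbered AlloTem and DC only libraries deviated together (correlations of deviations from group means 0.24, 0.143 and 0.516), so the numbers were taken to pair libraries. AlloTem 1 with DC only 2 gave 0.22 and AlloTem 2 with DC only 1 gave 0.135, so batches 1 and 2 were not told apart. The block also covers SynTem 2, whose Y-linked sum was 175 CPM, against 0 CPM in AlloTem 2, DC only 2 and LPS 2.

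Text named the 15 largest rises and 15 largest falls among genes that passed, with a mean of at least 5 CPM, no overlap between groups and a symbol that is not a predicted name, then up to 4 members that passed from each list, or the 2 of smallest p where 0 passed, and the most abundant members of marker lists. A few genes that the rule names are not reported here. Members and lists were chosen with earlier results of these data known. Genes named outside the rule, chosen after their values were seen, were Cd3e, Mcpt8, Cd79b, Blk, Fzd7, Plscr1, Arl11, Evi2b, F630028O10Rik, Mir155hg, AA467197, Csf2, Il13, Il4, Cd40, Ccl22, Pim3, Cxcl9, Cxcl10, Il12b, Il1b, Tnf, Cd80, Cd86, Tlr3, Tlr12, Clec9a, Ccr7 and Gprc5c. Of 603 list genes 576 were tested. Alternatives were other scalings and filters, DESeq2 1.42.0, limma 3.58.1 voom, the 6 libraries alone, thinned counts and left-out libraries. Tested on simulated data for AlloTem against DC only (13641 genes), the fit called 48 of 100 genes simulated with a 2-fold change and 84 of 100 with a 4-fold change, and 4 of its 136 calls were false. The simulated counts held no batch differences, and LPS and SynTem were drawn from the DC only means. The real libraries differ in both respects, so these shares may not carry over to them. Intervals and floors cover counting error only. Sequences came from RefSeq on GRCm38.p6.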

Additional observations from a re-analysis of the deposited data

How the results depend on the processing

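For AlloTem against DC only the 253 calls became 677 with DESeq2 (477 higher, 200 lower), 98 when the 6 libraries were fitted alone (85 higher, 13 lower), 420 with the replicate block (134 lower) and 36 without batch 3 (32 higher, 4 lower). Leaving out 1 library gave 42 to 323 calls, 33 to 257 higher and 8 to 66 lower. The other alternatives gave 187 (limma voom) to 312 (block in the 6 libraries). Of the 253, 252 kept their sign in the fits of 6 libraries, 199 were tested and kept it with a mean of at least 5 CPM, and all kept it elsewhere. The lack of overlap in all 253 left little room for a change of sign. Against LPS the 65 calls became 286 with DESeq2, 9 in 6 libraries, 746 in 6 libraries with the block, 136 with the block, 3 without batch 3 and 9 to 55 without 1 library. Against SynTem the 24 calls became 318 with DESeq2, 41 without a filter, 78 with the block, 4 without batch 3 and 3 to 47 without 1 library. In 6 libraries edgeR made 0 calls against SynTem without the block (989 genes at an unadjusted p under 0.05) and 0 with it (1140). The cause of these shifts was not tested, apart from the fewer libraries that the smaller fits hold. Of the 102 log2 fold changes followed, 40 lost their call without DC only 1, 37 without DC only 2 and 3 without AlloTem 3. Of the 58 that passed the test, 0 changed sign under the alternatives run, and of the others 11 changed sign in at least 1. The block ended 13 of the 253 calls: Cd3g, Lama5, Apc2, Rgs2, Il2ra, Il21, Rragd, Adm, Socs1, Cd300lf, Dcun1d3, Themis and E430024P14Rik. At 16323673 to 21861156 counts a library, Il4 had too few counts to be tested.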

Other observations

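Several further genes passed by the edgeR quasi-likelihood test and were chosen after their values were seen. Jag1, a Notch ligand like Dll4, was 14.96, 15.2 and 5.099 CPM in AlloTem and 1.502, 1.14 and 3.04 CPM in DC only (log2 2.62 ± 0.51, edgeR adjusted p = 0.0299). Jag1 did not pass without AlloTem 1 or 2 or DC only 1 or 2 (adjusted p = 0.0849 to 0.159). Pgf, placental growth factor, was 2.18, 2.63 and 1.09 CPM in AlloTem and 0.376, 0.171 and 0.147 CPM in DC only, and Flt1, the receptor for it and for Vegfa, was 12.01, 13.000 and 9.96 CPM in AlloTem and 2.19, 2.57 and 2.498 CPM in DC only (log2 3.07 ± 0.50 and 2.26 ± 0.39, edgeR adjusted p = 0.0159 and 0.0191). Both ligand and receptor were higher in every AlloTem library than in any DC only library. Epas1, the hypoxia factor HIF-2 alpha, was 8.79, 2.78 and 6.99 CPM in AlloTem and 0.2504, 0.286 and 0.735 CPM in DC only (log2 3.82 ± 0.74, edgeR adjusted p = 0.0296). Plat, tissue plasminogen activator, was 3.66, 3.18 and 1.61 CPM in AlloTem and 0.188, 0.0571 and 0.539 CPM in DC only (log2 3.35 ± 0.69, edgeR adjusted p = 0.0362). Pgf did not pass without AlloTem 1 or 2 or DC only 2 or 3 (adjusted p = 0.0514 to 0.09501). Epas1 did not pass without AlloTem 1 or DC only 1, 2 or 3 (adjusted p = 0.0573 to 0.158). Plat did not pass without AlloTem 1 or 2 or DC only 1 or 2 (adjusted p = 0.0978 to 0.183). Flt1 passed without AlloTem 3, but not when any of the other libraries was left out (adjusted p = 0.0524 to 0.109).

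Among regulators, Ahr, the aryl hydrocarbon receptor, was 105, 201 and 152 CPM in AlloTem and 36.6, 38.8 and 53.8 CPM in DC only, with AlloTem 2 highest and no overlap (log2 1.83 ± 0.23, edgeR adjusted p = 0.005204). Prdm1, the repressor Blimp-1, was 112, 130.2 and 35.5 CPM in AlloTem and 12.5, 13.8 and 8.23 CPM in DC only, opposite in direction to Bcl6, which it is known to oppose in lymphocytes (log2 3.01 ± 0.59, edgeR adjusted p = 0.031996). Orai1, the pore of the store-operated calcium channel, was 153, 148 and 140.5 CPM in AlloTem and 80.3, 84.5 and 80.9 CPM in DC only (log2 0.84 ± 0.09, edgeR adjusted p = 0.00171). Slc30a4, a zinc transporter, was 157, 398 and 252 CPM in AlloTem and 36.4, 35.5 and 29.5 CPM in DC only (log2 2.99 ± 0.30, edgeR adjusted p = 0.00171). Orai1 changed little but evenly, and no library of either group crossed into the other. Ahr, Orai1 and Slc30a4 passed in all 6 edgeR fits that each left out 1 library (adjusted p = 8.49e-04 to 0.0411). Prdm1 passed without AlloTem 3, but not when any of the other libraries was left out (adjusted p = 0.0863 to 0.147).

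Among genes that fell, 4 were likewise chosen after their values were seen. Slc29a3, a lysosomal nucleoside transporter, was 109, 92.8 and 109 CPM in AlloTem and 207, 213 and 139 CPM in DC only, and Slc46a3, a lysosomal carrier, was 104, 105 and 101 CPM in AlloTem and 176, 179 and 176 CPM in DC only (log2 -0.85 ± 0.17 and -0.78 ± 0.13, edgeR adjusted p = 0.0362 and 0.0175). Rab32, a GTPase of lysosome-related organelles, was 142, 112 and 113 CPM in AlloTem and 192, 198 and 187 CPM in DC only (log2 -0.66 ± 0.12, edgeR adjusted p = 0.0203). Rgs14, which shortens G protein signals, was 45.5, 33.9 and 48.2 CPM in AlloTem and 68.6, 64.3 and 68.5 CPM in DC only (log2 -0.66 ± 0.12, edgeR adjusted p = 0.0255). The groups did not overlap for any of these 4 genes. Slc46a3 did not pass without AlloTem 1 or 2 or DC only 1 or 2 (adjusted p = 0.0524 to 0.0852). Rab32 did not pass without AlloTem 2 or DC only 1, 2 or 3 (adjusted p = 0.0511 to 0.0999). Rgs14 did not pass without AlloTem 1 or DC only 1, 2 or 3 (adjusted p = 0.0527 to 0.114). Slc29a3 passed without DC only 3, but not when any of the other libraries was left out (adjusted p = 0.0642 to 0.17005).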
